A study of Mus musculus with 21 samples.

Results

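Induced Etv2 was compared with wildtype in sorted cells of mouse embryoid bodies that carried FLK1 and lacked PDGFRalpha, a gate called SP here. The induced group (iEtv2 SP) held 3 libraries from a line with the genotype doxycycline-inducible Etv2, treated with doxycycline at 2 µg per ml from day 2.5 and collected on day 4. The wildtype group (WT SP) held 3 libraries of the line A2lox.Cre from the same gate and day. These 6 of the 21 libraries in the series were chosen by their labelled line and gate, and by no measured value. Cells of A2lox.Cre that carried both receptors (WT DP, 3 libraries) were used only to place the levels. All lines were maintained on irradiated fibroblast feeders and then kept free of feeders before aggregation.

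The labels give a doxycycline treatment for the iEtv2 libraries and no treatment for the WT libraries. Etv2 induction, the cell line and doxycycline changed together between the groups and cannot be told apart. No label says how many clones the iEtv2 line stands for or whether the 3 libraries of a group came from separate cultures, so p-values measure the spread between these libraries, which may be technical. The counts per gene do not separate transcripts of the inducible Etv2 copy from those of the cell's own gene. By its title, the series asks what progenitors with Etv2 and progenitors with Flk1 give to vessels, blood and heart.

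Etv2 is a transcription factor of the ETS family, which binds DNA at a GGAA core and is needed in the mouse embryo for the first endothelial and blood cells. It is switched on briefly in mesoderm that carries FLK1, the VEGF receptor encoded by Kdr, and it acts upstream of other endothelial and blood regulators such as Tal1, Fli1 and the Sox7, Sox17 and Sox18 group. FLK1-positive mesoderm also gives rise to heart and smooth muscle, and PDGFRalpha marks mesoderm that leans to heart and paraxial fates. Embryoid bodies are aggregates of embryonic stem cells that form these mesodermal cells in culture.

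Levels are given in CPM, a gene's counts as a share of all counts in genes after scaling between libraries, and are listed by replicate. Etv2 (chr7:30633616-30635852, minus strand, GRCm38) was measured at 234, 232 and 250 CPM in iEtv2 SP and at 89, 73.9 and 118 CPM in WT SP. The groups did not overlap, and Etv2 rose 2.55-fold (log2 fold change 1.35 ± 0.14 SE, adjusted p = 1.88e-05, edgeR quasi-likelihood test). WT DP cells held 53, 49.5 and 58.2 CPM, less than any SP library. The wildtype SP libraries already held Etv2 transcripts, so the groups differ in the bulk level of Etv2. More cells with Etv2 and more Etv2 per cell cannot be told apart in bulk libraries.

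The sorted receptors were checked next. Kdr was measured at 683, 954 and 937 CPM in iEtv2 SP and at 831, 887 and 958 CPM in WT SP, ranges that overlap (log2 fold change -0.06 ± 0.14 SE, edgeR adjusted p = 0.767). Pdgfra was measured at 3.18, 10.3 and 6.73 CPM in iEtv2 SP and at 31, 44.6 and 44.3 CPM in WT SP, against 257, 308 and 391 CPM in WT DP. Pdgfra was lower in both SP groups than in WT DP, which matches the gate, and lower still in every iEtv2 library (log2 fold change -2.57 ± 0.32 SE, edgeR adjusted p = 6.35e-05). T, the brachyury gene of nascent mesoderm, was measured at 143, 380 and 275 CPM in iEtv2 SP and at 159, 227 and 220 CPM in WT SP, and did not pass the test (log2 fold change 0.40 ± 0.29 SE, edgeR adjusted p = 0.286). Without replicate 1 of iEtv2 SP, T rose by 0.71 on the log2 scale at an edgeR adjusted p of 0.0171.

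**Figure D1:**
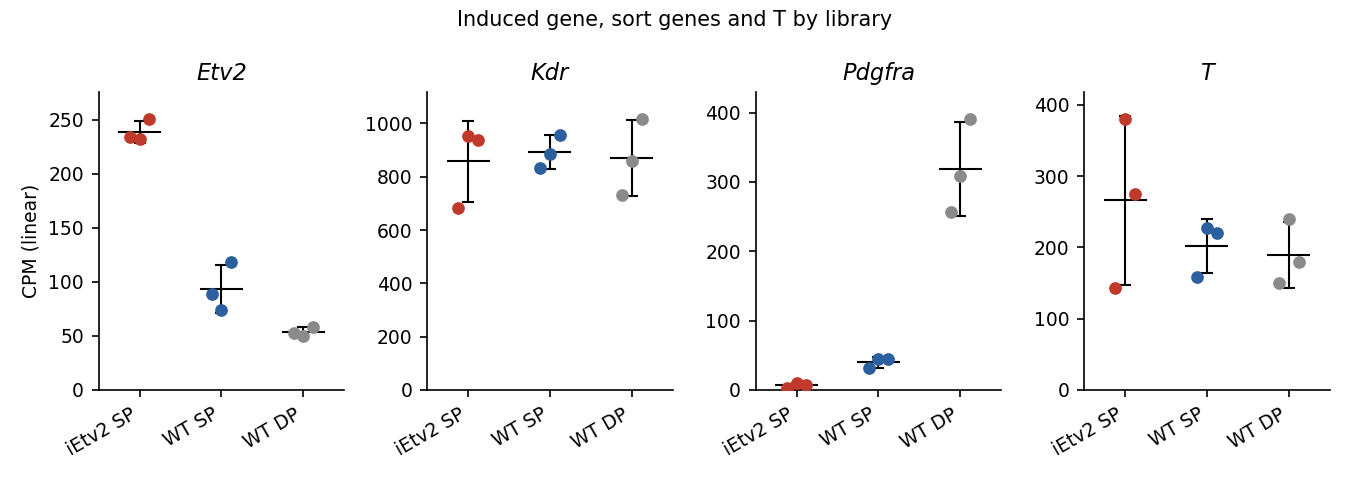
Scaled levels (CPM, linear axis) of Etv2, Kdr, Pdgfra and T in the 3 libraries each of iEtv2 SP, WT SP and WT DP, with lines at the group mean and bars of 1 SD. Etv2 lies at 232 to 250 CPM in iEtv2 SP and at 73.9 to 118 CPM in WT SP, Kdr overlaps among the groups, and Pdgfra is at most 10.3 CPM in iEtv2 SP, below the other groups.

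The 6 libraries held 24031900 to 28184900 counts in genes, and libraries of one group correlated at 0.992 to 0.997 (Pearson r of log2 CPM across genes), against 0.948 to 0.961 between iEtv2 SP and WT SP. Ribosomal RNA took 0.876 to 2.09% of counts in iEtv2 SP and 1.4 to 1.94% in WT SP. Of 16288 genes tested, 8274 or 50.8% were called at an adjusted p below 0.05. The median log2 fold change was 0.0019, and 60.4% of genes had groups that did not overlap. Of the calls, 4296 (26.4%) rose and 3978 (24.4%) fell. Called changes of at least 2-fold were more often increases, 2119 genes (13%), than decreases, 1029 genes (6.32%). With so many genes called, a list is described below by its counts beside these shares. Of the called increases of at least 2-fold, 1977 or 93.3% lay in every iEtv2 library above every WT DP library as well, and of the decreases 893 or 86.8% lay below every WT DP library.

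The 12 largest increases by the naming rule, which asks for a mean of 5 CPM and groups without overlap, were Esx1, C1ql2, S100a16, Igf1, Glp1r, Stab1, Cldn5, Fam19a4, Hid1, Tie1, Fam84a and Ccm2l, with log2 fold changes from 5.35 to 7.0038. Endothelial genes stood among them. Tie1, an endothelial receptor tyrosine kinase, was measured at 146, 254 and 227 CPM in iEtv2 SP and at 6.59, 3.73 and 3.86 CPM in WT SP (log2 fold change 5.46 ± 0.26 SE, edgeR adjusted p = 1.19e-07). Cldn5, the claudin of endothelial tight junctions, was measured at 63.8, 85.8 and 84.9 CPM in iEtv2 SP and at 1.73, 0.989 and 1.49 CPM in WT SP. Stab1, a scavenger receptor of sinusoidal endothelium and macrophages, was measured at 46.6, 110 and 102 CPM in iEtv2 SP and at 2.12, 1.33 and 1.02 CPM in WT SP. In all 3 genes the groups were far apart, and the fitted increases were 44.1-fold for Tie1, 55.8-fold for Cldn5 and 57.5-fold for Stab1.

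Others of the 12 are better known from other tissues. Esx1, an X-linked homeobox gene of the placenta, showed the largest change of the 12, at 48.9, 20.7 and 24.3 CPM in iEtv2 SP and 0.157, 0.304 and 0.255 CPM in WT SP (log2 fold change 7.0038 ± 0.47 SE, edgeR adjusted p = 9.07e-07). Igf1, which encodes insulin-like growth factor 1, was measured at 99.3, 108 and 108 CPM in iEtv2 SP, against 2.67, 1.71 and 0.891 CPM in WT SP and at most 0.0762 CPM in WT DP. Glp1r, the receptor of glucagon-like peptide 1, was measured at 74, 52.1 and 55.3 CPM in iEtv2 SP and at 0.981, 1.141 and 0.934 CPM in WT SP. The WT SP levels of Esx1, C1ql2, S100a16, Fam19a4 and Ccm2l lay below 0.6 CPM in every library, so their ratios rest on low counts and their order is uncertain. Ccm2l, a partner of the CCM signalling genes of endothelium, was measured at 9.7, 14.8 and 13.4 CPM in iEtv2 SP and was listed at 0 in all 3 WT DP libraries.

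The 12 largest decreases were Foxf1, Myl7, Tbx2, Hand2, Tlx2, Hoxb1, Rgs5, Phlda2, Bmp5, Col1a1, Msx2 and L1cam, with log2 fold changes from -6.49 to -4.89. Foxf1, a forkhead factor of lateral plate and extraembryonic mesoderm, was measured at 0.268, 1.79 and 0.609 CPM in iEtv2 SP and at 74.7, 78.6 and 86.6 CPM in WT SP (log2 fold change -6.49 ± 0.33 SE, edgeR adjusted p = 1.44e-07). Rgs5, a G protein regulator known from pericytes, was measured at 1.04, 7.28 and 3.11 CPM in iEtv2 SP and at 164, 189 and 195 CPM in WT SP. Phlda2, an imprinted gene of the placenta, was measured at 3.64, 7.47 and 3.25 CPM in iEtv2 SP and at 194, 214 and 267 CPM in WT SP. In all 3 genes the highest iEtv2 value was a small part of the lowest WT SP value. The WT DP libraries held Foxf1 at 84.5, 69.3 and 70.5 CPM and Rgs5 at 106, 106 and 108 CPM, so for both genes the iEtv2 cells lay apart from both wildtype populations. In bulk libraries, fewer cells of a type and less RNA per cell cannot be told apart.

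**Figure D2:**
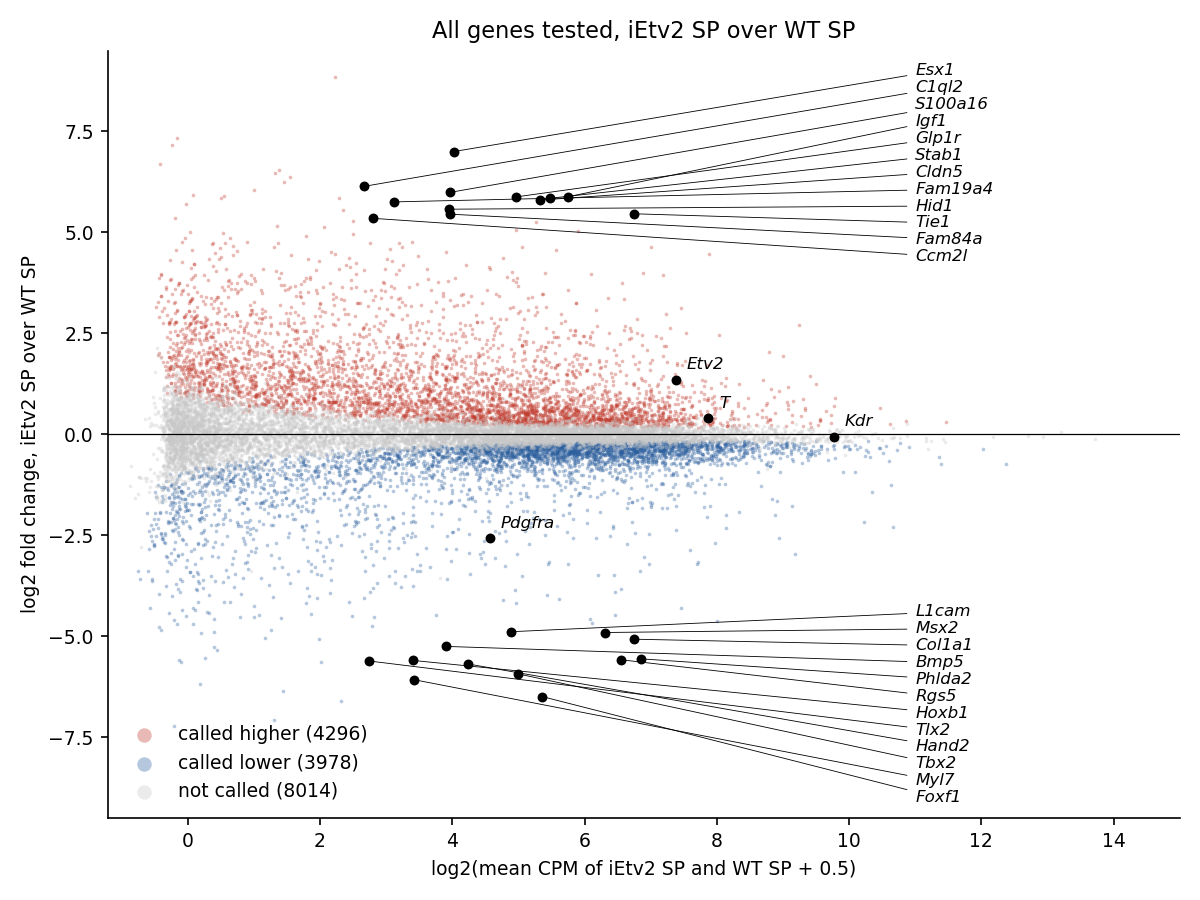
Log2 fold change of iEtv2 SP over WT SP against log2 of the mean CPM of both groups plus 0.5 for the 16288 genes tested, with called increases in red, called decreases in blue and genes not called in grey. The 12 largest increases and 12 largest decreases under the naming rule are marked with Etv2, T, Kdr and Pdgfra; increases reach larger folds among low genes, and Kdr lies near 0.

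The regulators that act with Etv2 were higher in iEtv2 SP as a group. Of 20 blood and endothelial transcription factors 19 were tested, 13 rose, 1 fell and 5 did not pass, with a median log2 fold change of 1.72, against a median of 0.0019 over all genes tested and 26.4% of all genes rising. Sox18, an endothelial SOX factor, was measured at 263, 231 and 242 CPM in iEtv2 SP and at 13.8, 7.04 and 8.49 CPM in WT SP (log2 fold change 4.65 ± 0.22 SE). Its relative Sox7 was measured at 286, 256 and 267 CPM in iEtv2 SP and at 50.5, 39.9 and 40.2 CPM in WT SP. In both genes every iEtv2 library lay above every WT SP library. The ETS factor Fli1, which maintains endothelial genes after Etv2 is lost, was measured at 266, 265 and 267 CPM in iEtv2 SP and at 41.3, 34.2 and 25.3 CPM in WT SP, and its ETS relative Elk3 rose by 2.64 on the log2 scale. Bcl6b, a zinc finger repressor of endothelium, rose by 3.49.

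The bHLH factor Tal1, needed for blood and a partner of Lmo2 and Gata2, was measured at 300, 290 and 290 CPM in iEtv2 SP and at 161, 126 and 137 CPM in WT SP (log2 fold change 1.06 ± 0.13 SE). Gata2 was measured at 199, 155 and 162 CPM in iEtv2 SP and at 144, 124.5 and 146 CPM in WT SP, and did not pass the test (edgeR adjusted p = 0.071). The other members that did not pass were Tcf3, Cbfa2t3, Meis1 and Nfatc1. The 1 decrease was Ldb1, the adaptor that joins Tal1 and Lmo2, by 0.35 on the log2 scale. Tal1 and Gata2 were far lower in WT DP, at 10.6 to 15.7 CPM and 17.6 to 25 CPM, so on a log scale WT SP lay nearer to iEtv2 SP than to WT DP for both genes.

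Endothelial surface and junction genes had the highest median log2 fold change of the 27 lists. Of 30 genes 28 were tested, 27 rose (96.4%, beside 26.4% of all genes), all by at least 2-fold, and 1 fell. The median log2 fold change was 3.47. The summed level of the list was 2057, 2831 and 2661 CPM in iEtv2 SP, against 340, 259 and 265 CPM in WT SP and 74.1, 72.1 and 54.1 CPM in WT DP. All 27 increases had group means in the order iEtv2 SP, WT SP, WT DP from high to low. The share of all genes with that order is not given here. In all 27 every iEtv2 library lay above every WT DP library, as in 93.3% of all called increases of at least 2-fold. Stab2 and Lyve1, markers of lymphatic and sinusoidal endothelium, did not pass the filter on low counts, with at most 0.361 CPM in any of the 9 libraries.

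Cdh5, which encodes VE-cadherin, the adhesion molecule that defines endothelial junctions, was measured at 306, 546 and 501 CPM in iEtv2 SP and at 24.5, 21 and 15.3 CPM in WT SP (log2 fold change 4.47 ± 0.25 SE, edgeR adjusted p = 2.5e-07). Pecam1, the endothelial adhesion molecule CD31, was measured at 39.2, 69.5 and 58.9 CPM in iEtv2 SP and at 9.34, 7.61 and 3.86 CPM in WT SP. Tek, the angiopoietin receptor, was measured at 248, 284 and 286 CPM in iEtv2 SP and at 25.4, 15.6 and 12.5 CPM in WT SP. In each of the 3 genes the lowest iEtv2 library exceeded the highest WT SP library severalfold. Emcn, an endothelial sialomucin, was close to absent from WT SP and reached 2.19, 6.63 and 5.58 CPM in iEtv2 SP, where WT SP held 0.118, 0 and 0.0424 CPM. Per kilobase of exon, which allows levels of different genes to be compared, the mean level of Tie1 was 42.5 CPM in iEtv2 SP and 0.962 CPM in WT SP, and that of Cldn5 was 55.2 CPM in iEtv2 SP and 0.989 CPM in WT SP.

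The iEtv2 libraries differed among themselves in this list. In 24 of the 28 genes the lowest iEtv2 value was that of replicate 1, for example 28.6 CPM of the clotting factor gene Vwf against 83.3 and 63.2 CPM in the other iEtv2 libraries. In 18 of 20 primitive streak genes replicate 1 was again the lowest of the iEtv2 libraries. The same library had the highest summed level of the pluripotency list, 1619 CPM against 1492 and 1600 CPM in replicates 2 and 3. By gene, however, replicate 1 was the lowest iEtv2 library in 12 of the 21 pluripotency genes. It also had the highest summed level of the glycolysis and hypoxia list, 15541 CPM against 12885 and 13266 CPM, and was the lowest in 3 of those 21 genes. The part of these differences in the endothelial levels was not tested. Without replicate 1 of iEtv2 SP the same test called 27 endothelial genes higher and 1 lower, as it did with all libraries.

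**Figure D3:**
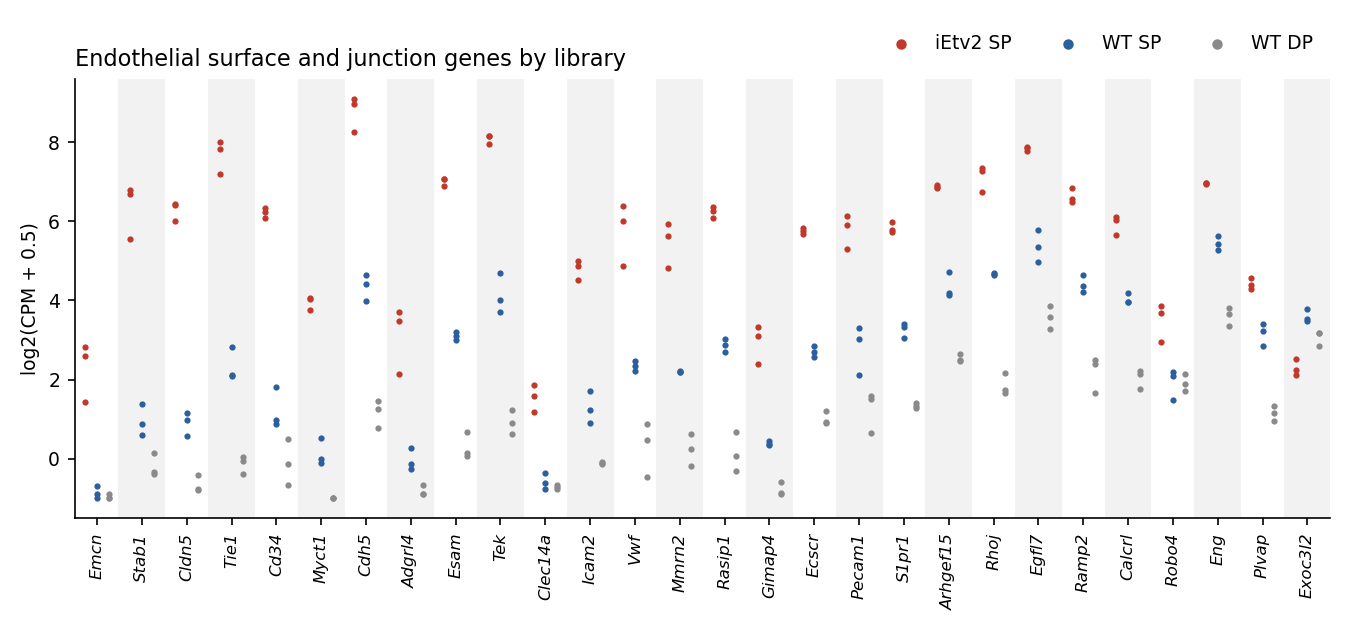
Levels of the 28 tested endothelial surface and junction genes, as log2(CPM + 0.5), in each library of iEtv2 SP, WT SP and WT DP, ordered by fold change from high to low. In 27 genes the 3 iEtv2 libraries lie above both wildtype groups, and Exoc3l2 at the right lies below.

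Exoc3l2, an exocyst gene of endothelium, was the exception, at 4.22, 5.26 and 3.82 CPM in iEtv2 SP and 13.3, 11.1 and 10.7 CPM in WT SP (log2 fold change -1.40 ± 0.16 SE, edgeR adjusted p = 4.6e-05). The promoters of the list were read because ETS factors bind near the start sites of many endothelial genes. The 250 bases before the start site (RefSeq, GRCm38.p6) were matched for 11386 of the 16288 genes tested and for 17 of the 28 endothelial genes. The letters CAGGAA, on either strand, were in 13 of these 17 promoters (76.5%), against 21.6% of all matched promoters, 24.2% of those of genes that rose by at least 2-fold and 21.6% of those that fell by at least 2-fold. CCGGAA, on either strand, was in 2 of the 17 (11.8%), against 21.6% of all. That share was near those of genes that rose (10.7%) or fell (9.92%) by at least 2-fold. In genes not called it was 24.1%. The bare core GGAA was in 94.1% of the 17 and in 92.8% of all, and the median GC content was 56.8% in the 17 and 60% in all. CAGGAA and CCGGAA each hold the core GGAA and cannot lie at one site.

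The 80 bases before the start site are shown for the 10 endothelial genes that had CAGGAA or CCGGAA within them, since these let the motif be seen in its place. Capitals mark the motif, which reads TTCCTG where CAGGAA lies on the other strand, and each line runs 5′ to 3′ on the strand of the gene.
Stab1: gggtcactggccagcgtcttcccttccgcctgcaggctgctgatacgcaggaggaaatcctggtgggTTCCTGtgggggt
Tek: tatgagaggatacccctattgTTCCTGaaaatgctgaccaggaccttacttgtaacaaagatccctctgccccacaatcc
Emcn: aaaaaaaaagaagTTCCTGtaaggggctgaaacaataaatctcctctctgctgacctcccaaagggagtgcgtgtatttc
Egfl7: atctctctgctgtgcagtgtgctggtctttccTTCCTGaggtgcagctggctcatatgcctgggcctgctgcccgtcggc
Robo4: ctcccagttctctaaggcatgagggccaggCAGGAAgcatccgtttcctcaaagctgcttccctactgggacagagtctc
Adgrl4: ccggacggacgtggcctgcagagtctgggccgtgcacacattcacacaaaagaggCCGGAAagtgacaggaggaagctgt
Myct1: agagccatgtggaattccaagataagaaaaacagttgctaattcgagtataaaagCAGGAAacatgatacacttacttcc
Calcrl: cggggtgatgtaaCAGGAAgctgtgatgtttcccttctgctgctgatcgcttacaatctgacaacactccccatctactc
Rasip1: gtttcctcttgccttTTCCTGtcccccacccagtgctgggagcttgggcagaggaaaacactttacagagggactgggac
Exoc3l2: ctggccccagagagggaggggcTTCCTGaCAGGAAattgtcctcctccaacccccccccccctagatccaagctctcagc

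In GRCm38.p6 these stretches lie at chr4:94739209-94739288 (Tek), chr3:137340998-137341077 (Emcn), chr2:26581003-26581082 (Egfl7), chr9:37401892-37401971 (Robo4), chr3:151437802-151437881 (Adgrl4), chr10:5593648-5593727 (Myct1), chr7:45627457-45627536 (Rasip1) and chr7:19463207-19463286 (Exoc3l2), all on the plus strand, and at chr2:84425267-84425346 (Calcrl) and chr14:31168642-31168721 (Stab1) on the minus strand. Exoc3l2, the gene of the list that fell, held CAGGAA on both strands. Among these 10 genes the log2 fold changes ran from -1.40 (Exoc3l2) to 6.37 (Emcn). Exoc3l2 was the only decrease among them and in the whole list. These genes therefore cannot show how the motif relates to direction. Of the largest increases, Tie1 and Igf1 each had 1 CAGGAA and Stab1 had 2 in the 250 bases. Cldn5, among the largest increases, held no GGAA there, on either strand. A match of letters is a description of these windows and says nothing of binding.

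Of 10 VEGF receptor and ligand genes 3 rose, 3 fell and 4, Kdr among them, did not pass; the shares that rose and fell, 30% each, were near those of all genes (26.4% and 24.4%). Flt1, the VEGFR1 gene, was measured at 336, 544 and 454 CPM in iEtv2 SP and at 78.3, 90.3 and 72.9 CPM in WT SP (log2 fold change 2.47 ± 0.22 SE). Flt4, the VEGFR3 gene, was measured at 143, 183 and 181 CPM in iEtv2 SP and at 25.9, 27.2 and 25.4 CPM in WT SP, and the semaphorin receptor Plxnd1 rose by 2.71 on the log2 scale. The co-receptor Nrp1, at 51.1, 88.3 and 75.4 CPM in iEtv2 SP and 175, 175 and 171 CPM in WT SP, fell, as did the ligands Vegfc and Pgf.

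Arterial genes and the Notch pathway rose in part. Notch signalling between neighbouring cells is used by endothelium to become arterial. Of 20 genes 19 were tested, 10 rose (52.6%), 4 fell (21.1%) and 5 did not pass (median log2 fold change 0.39). Beside these stand 26.4% of all genes that rose and 24.4% that fell. Gja4, the connexin of arterial endothelium, was measured at 70.2, 48 and 56.4 CPM in iEtv2 SP and at 4.83, 3.31 and 3.78 CPM in WT SP. Notch4, the endothelial Notch receptor, was measured at 39.8, 85.5 and 75.2 CPM in iEtv2 SP and at 6.99, 6.01 and 5.9 CPM in WT SP. Acvrl1, a BMP9 receptor of endothelium, rose by 3.16 on the log2 scale. The ligand Dll4 was measured at 6.44, 9.07 and 9.58 CPM in iEtv2 SP and at 0.942, 0.989 and 1.23 CPM in WT SP. The genes that fell were Dll3, Cxcr4, Hes1 and Hey2, of which Dll3 and Cxcr4 had their highest levels in WT DP, Dll3 at 155, 170 and 150 CPM and Cxcr4 at 144, 110 and 168 CPM.

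Venous genes did not move as one. Nr2f2, the regulator of venous identity, was measured at 6.37, 15.6 and 14.3 CPM in iEtv2 SP and at 0.55, 0.418 and 0.382 CPM in WT SP (log2 fold change 4.73 ± 0.41 SE). Aplnr, the apelin receptor, was measured at 55.1, 127 and 79.3 CPM in iEtv2 SP and at 188, 209 and 212 CPM in WT SP, and fell. Of the 7 genes 4 rose (57.1%), 2 fell (28.6%) and 1 did not pass, beside 26.4% and 24.4% of all genes. Flt4 and Nrp2 are also VEGF receptor genes of the list before.

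Blood genes changed in both directions, with progenitor and leukocyte genes among the increases and regulators of blood emergence and red cells among the decreases. Of 22 hematopoietic genes 18 were tested, 8 rose (44.4%), 4 fell (22.2%) and 6 did not pass (median log2 fold change 0.58). Over all genes 26.4% rose and 24.4% fell, so the share of hematopoietic decreases was near that of all genes. Kit, the stem cell factor receptor, was measured at 144, 185 and 164 CPM in iEtv2 SP and at 27, 34.4 and 21.1 CPM in WT SP. Laptm5, a lysosomal gene of blood cells, was measured at 25.3, 19.2 and 21.1 CPM in iEtv2 SP and at 3.81, 2.28 and 1.78 CPM in WT SP. Lcp1 and Vav1, genes of the leukocyte cytoskeleton and signalling, rose by 2.69 and 2.99 on the log2 scale. Itga2b, the CD41 gene of the first blood progenitors, rose as well, at 26.6, 39.8 and 34.3 CPM in iEtv2 SP against 14.5, 7.65 and 7.51 CPM in WT SP.

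The genes that fell were Runx1, Gata1, Gfi1b and Cd44. Runx1, required for blood to emerge from endothelium, was measured at 14.6, 16.5 and 12.6 CPM in iEtv2 SP and at 56.9, 59.3 and 47.3 CPM in WT SP (log2 fold change -1.91 ± 0.12 SE, edgeR adjusted p = 6.2e-07). The iEtv2 level of Runx1 was close to that of WT DP, at 18.2, 20.1 and 18 CPM. Gata1, the master factor of red cells, was measured at 2.38, 0.724 and 0.88 CPM in iEtv2 SP and at 7.97, 4.34 and 2.84 CPM in WT SP. The pan-leukocyte marker Ptprc and the macrophage receptor gene Csf1r did not pass the filter on low counts. Of 16 erythroid and heme genes only 8 were tested, of which 6 fell (75%), 1 (Fech) rose and 1 did not pass. Of all genes 24.4% fell. Hbb-bh1, an embryonic globin, was measured at 0.192, 0.229 and 0.169 CPM in iEtv2 SP and at 5.02, 1.56 and 0.509 CPM in WT SP, and Nfe2, Alas2 and Epor fell by 1.27, 1.01 and 0.96 on the log2 scale. The other globin genes of the list did not pass the filter on low counts.

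Cardiac and lateral plate genes had the lowest medians of the 27 lists. Of 17 cardiac progenitor factors 16 were tested, 13 fell, all by at least 2-fold, 1 rose and 2 did not pass, with a median log2 fold change of -3.48, beside the 24.4% of all genes that fell. Hand1, a bHLH factor of heart and extraembryonic mesoderm, was measured at 31.2, 20.2 and 8.49 CPM in iEtv2 SP and at 487, 470 and 511 CPM in WT SP (log2 fold change -4.62 ± 0.36 SE). Its relative Hand2 was measured at 0.46, 0.877 and 0.744 CPM in iEtv2 SP and at 46.1, 22.8 and 39.7 CPM in WT SP. Tbx20, a T-box factor of the heart, was measured at 5.83, 6.06 and 4.3 CPM in iEtv2 SP and at 131, 133 and 121 CPM in WT SP. All 3 factors were also high in WT DP, with Hand1 at 364, 353 and 290 CPM, Hand2 at 63.6, 31.4 and 38.2 CPM and Tbx20 at 106, 99.9 and 108 CPM.

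Gata4, a zinc finger factor of heart and endoderm, was measured at 20.7, 22.5 and 16 CPM in iEtv2 SP, against 189, 202 and 231 CPM in WT SP and 300, 308 and 336 CPM in WT DP. Gata6, which acts beside it, was measured at 92.6, 98.7 and 89.1 CPM in iEtv2 SP and at 96.2, 108 and 115 CPM in WT SP, and did not pass the test. The member that rose was Mef2c, a MADS factor of heart that endothelium also uses, at 17.9, 22 and 23 CPM in iEtv2 SP and 6.63, 4.03 and 3.01 CPM in WT SP (log2 fold change 2.19 ± 0.29 SE). Mesp1, the first marker of heart mesoderm, varied within iEtv2 SP, at 0.345, 7.32 and 1.96 CPM, and was measured at 50.5, 49.4 and 73.7 CPM in WT SP.

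All 14 lateral plate and extraembryonic mesoderm genes were tested, and 13 fell (92.9%, beside 24.4% of all genes) while 1 rose. The median log2 fold change was -3.11. Msx2, a homeobox target of BMP, was measured at 4.87, 6.75 and 3.69 CPM in iEtv2 SP and at 151, 142 and 165 CPM in WT SP. Bmp4, the ligand that patterns this mesoderm, was measured at 23.7, 62.4 and 29.5 CPM in iEtv2 SP and at 201, 201 and 238 CPM in WT SP. The increase was Wt1, a factor of the later epicardium and kidney, at 3.64, 3.35 and 2.74 CPM in iEtv2 SP and 0.942, 2.13 and 1.78 CPM in WT SP; it was not called without replicate 1 or replicate 2 of iEtv2 SP or replicate 1 of WT SP. Hand1 and Gata4 are in both the cardiac and the lateral plate list.

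**Figure D4:**
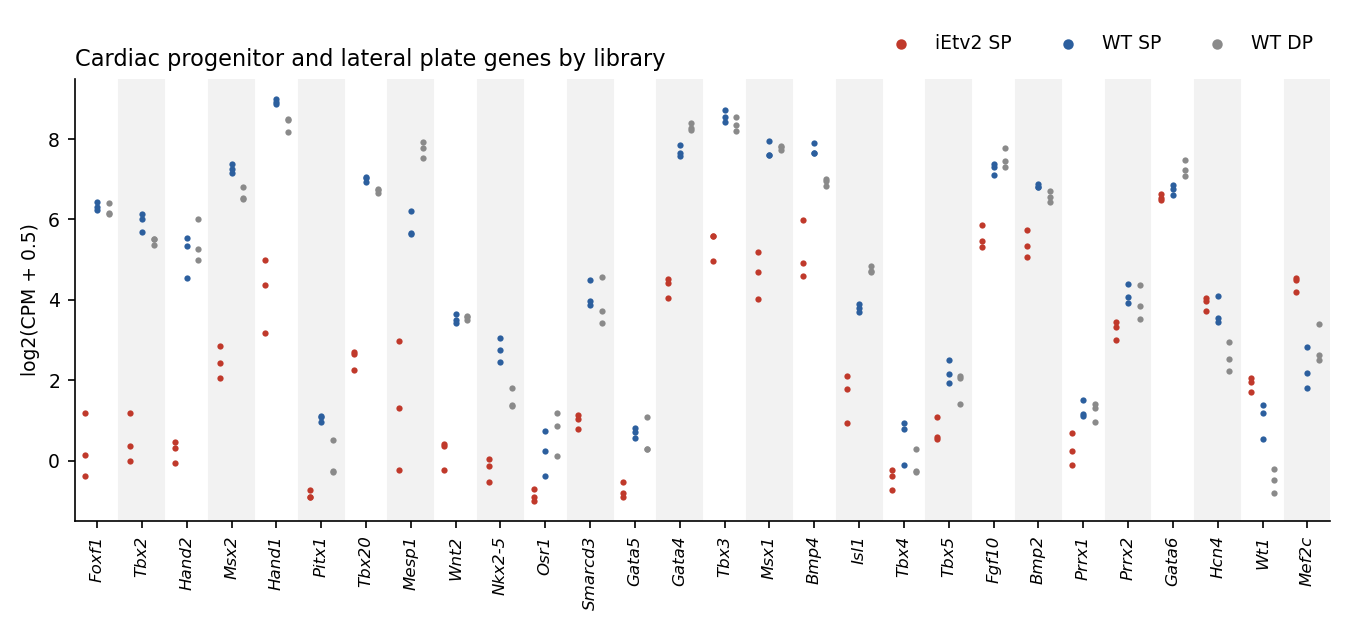
Levels of the 28 tested cardiac progenitor and lateral plate genes, as log2(CPM + 0.5), in each library of iEtv2 SP, WT SP and WT DP, ordered by fold change from low to high. At the left, Foxf1, Tbx2, Hand2 and Msx2 lie far below both wildtype groups in all 3 iEtv2 libraries, and at the right Wt1 and Mef2c lie above WT SP.

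Contractile genes were lower in iEtv2 SP where they changed. Of 13 cardiomyocyte contractile genes tested 9 fell (69.2%, beside 24.4% of all genes) and 4 did not pass (median log2 fold change -2.66). Myl7, the atrial myosin light chain, was measured at 0.192, 0.381 and 0.305 CPM in iEtv2 SP, against 21.4, 16.8 and 22.2 CPM in WT SP and 82.2, 43 and 53.5 CPM in WT DP. The summed level of the contractile list was 9.97 to 13.2 CPM in iEtv2 SP and 64.8 to 69.7 CPM in WT SP, and that of the smooth muscle list was 609 to 651 CPM in iEtv2 SP and 1202 to 1374 CPM in WT SP. Of 11 smooth muscle contractile genes tested 6 fell (54.5%, beside 24.4% of all genes) and 5 did not pass. In neither list did edgeR call an increase, 0 members of either rose at an unadjusted p below 0.05, and DESeq2 called 0 increases as well; without replicate 2 of WT SP, edgeR called 1 increase among the smooth muscle genes. Cnn1, the calponin of smooth muscle, was measured at 2.22, 2.71 and 2.33 CPM in iEtv2 SP and at 14.4, 21.3 and 20.6 CPM in WT SP. Acta2, the smooth muscle actin, was measured at 15.6, 10.8 and 10 CPM in iEtv2 SP and at 14.4, 11.5 and 10.7 CPM in WT SP, ranges that overlap.

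Streak and paraxial genes changed less evenly, with more decreases than increases. Of 20 primitive streak and nascent mesoderm genes 9 fell (45%), 2 rose (10%) and 9 did not pass (median log2 fold change -0.83). Beside these stand 24.4% of all genes that fell and 26.4% that rose. Evx1, a homeobox gene of the posterior streak, was measured at 15.1, 47.9 and 25.8 CPM in iEtv2 SP and at 109, 140 and 177 CPM in WT SP. Snai1, which drives cells out of the epithelium, was measured at 8.9, 18.6 and 10.9 CPM in iEtv2 SP and at 50.7, 54.7 and 71.5 CPM in WT SP. The increases were Nodal and Fgf5, and the values of Fgf5 overlapped between the groups. Only 1 increase was left in the list without replicate 2 or 3 of iEtv2 SP or replicate 1 or 3 of WT SP. Of 12 paraxial mesoderm genes tested 6 fell (50%), 3 rose (25%) and 3 did not pass. The 3 increases were Lfng, Tcf15 and Foxc2, a share near the 26.4% of all genes. The summed level of the paraxial list was not lower, at 43.1 to 49.1 CPM in iEtv2 SP and 31.7 to 43.6 CPM in WT SP. Msgn1, a factor of presomitic mesoderm, was measured at 0, 1.03 and 0.169 CPM in iEtv2 SP and at 4.36, 6.66 and 5.73 CPM in WT SP.

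**Figure D5:**
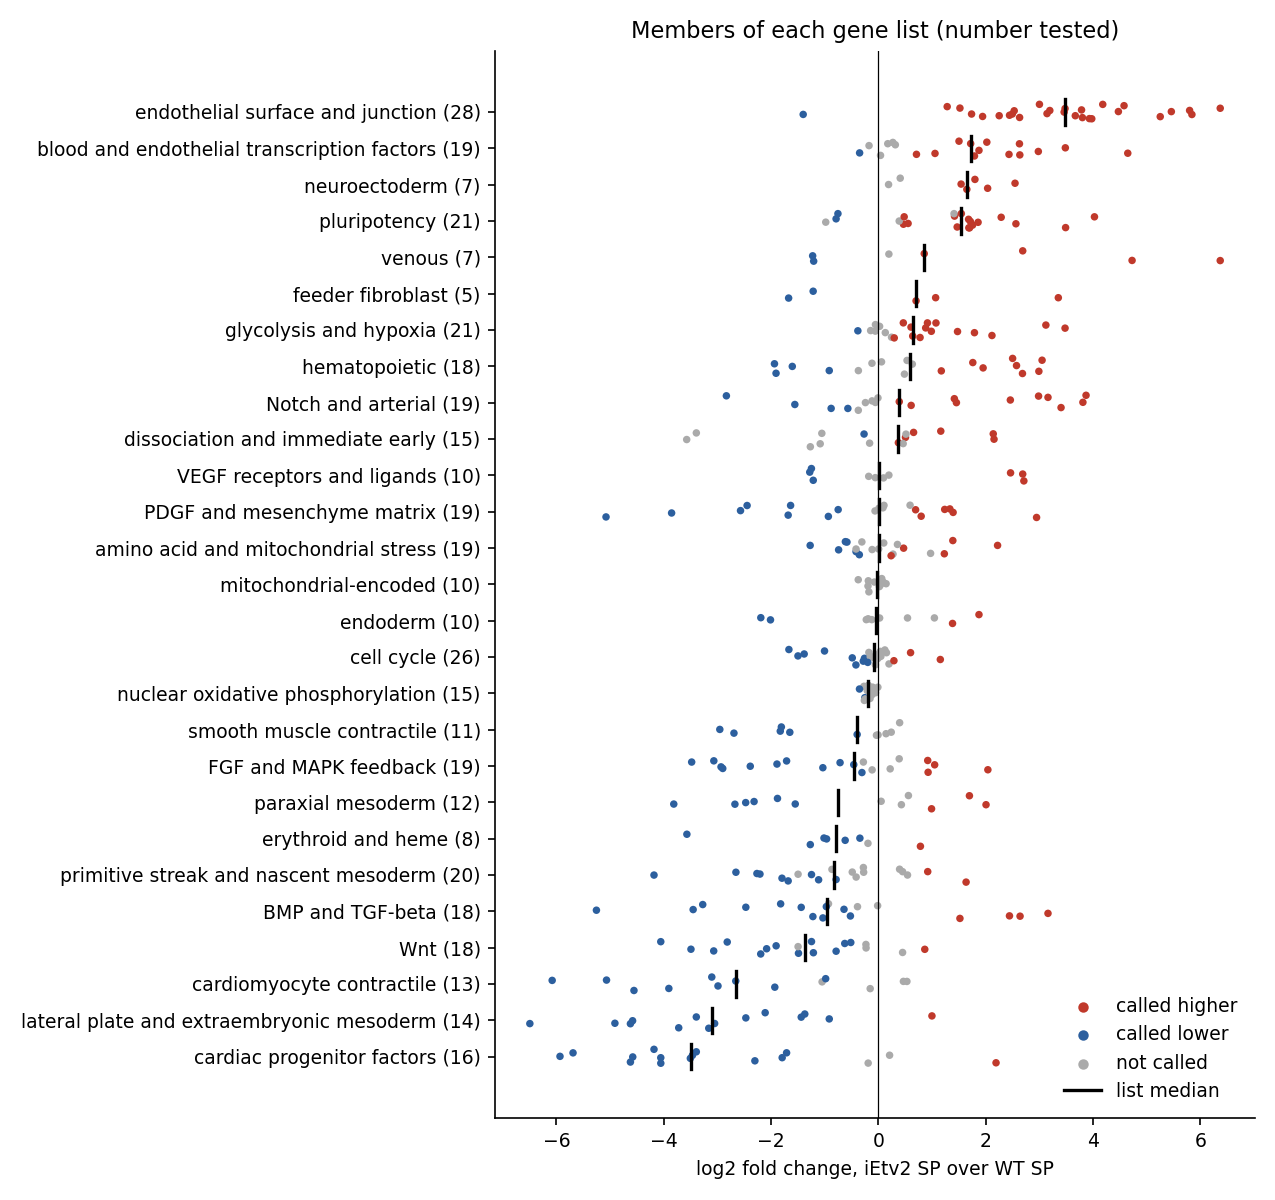
Log2 fold changes of iEtv2 SP over WT SP for the tested members of all 27 gene lists, ordered by the list median (black bar), with called increases in red, called decreases in blue and members not called in grey. Endothelial genes lie at the top with a median of 3.47 and cardiac progenitor factors at the bottom with a median of -3.48.

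Signalling genes that pattern mesoderm were lower in iEtv2 SP. Of 18 Wnt genes 13 fell (72.2%, beside 24.4% of all genes), 1 (Rnf43) rose and 4 did not pass. The median log2 fold change was -1.37. Rnf43 was not called without replicate 3 of iEtv2 SP or replicate 1 or 3 of WT SP. Wnt5a, a non-canonical ligand of mesoderm, was measured at 3.37, 23.3 and 9.17 CPM in iEtv2 SP and at 115, 154 and 134.1 CPM in WT SP. Lef1, a transcription factor of the canonical branch, was measured at 10.7, 16.7 and 15 CPM in iEtv2 SP and at 57.8, 57.1 and 64.6 CPM in WT SP, and the feedback target Axin2 fell by 0.51 on the log2 scale. Of 19 FGF genes 11 fell (57.9%), 4 rose (21.1%) and 4 did not pass, beside 24.4% and 26.4% of all genes. Fgf3 was measured at 10.5, 21.3 and 11.2 CPM in iEtv2 SP and at 175, 140 and 164 CPM in WT SP, and Etv4, an ETS gene that FGF signalling switches on, was measured at 1.34, 7.66 and 3.93 CPM in iEtv2 SP and at 28.3, 32.9 and 37.4 CPM in WT SP. The feedback phosphatase Dusp6 and the inhibitor Spry1 were among the 4 that rose.

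BMP ligands and endothelial TGF-beta receptors moved in opposite directions. Of 18 genes 11 fell (61.1%), 4 rose (22.2%) and 3 did not pass, beside 24.4% and 26.4% of all genes. The ligands Bmp2, Bmp4, Bmp5 and Bmp7 all fell, Bmp5 to 0.499, 1.07 and 0.643 CPM in iEtv2 SP against 32.3, 29 and 23.2 CPM in WT SP. The BMP targets Id1 and Id3 fell by 0.52 and 1.22 on the log2 scale, and Id2 did not pass. The 4 increases were all receptors: Eng, Acvrl1, Tgfbr2 and Tgfbr3. Tgfbr2, the type II receptor of TGF-beta, was measured at 60.5, 78.7 and 78.5 CPM in iEtv2 SP and at 12.1, 11.6 and 11.21 CPM in WT SP.

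PDGF and matrix genes changed in both directions. Of 19 genes 6 rose (31.6%), 8 fell (42.1%) and 5 did not pass (median log2 fold change 0.01), beside 26.4% and 24.4% of all genes. Col1a1, the main fibrillar collagen chain, was measured at 7.21, 7.51 and 3.82 CPM in iEtv2 SP and at 235, 218 and 169 CPM in WT SP (log2 fold change -5.08 ± 0.39 SE). Col4a1, a chain of the basement membrane collagen under endothelium, was measured at 926, 1147 and 980 CPM in iEtv2 SP and at 458, 432 and 405 CPM in WT SP. Both PDGF receptor genes fell, Pdgfrb by 1.68 on the log2 scale, while the ligand gene Pdgfb rose by 0.80. Fibrillar chains also rose, Col1a2, the partner of Col1a1, by 0.70 and Col5a2 by 2.95 on the log2 scale.

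Markers of pluripotent cells were higher in iEtv2 SP. Of 21 genes 16 rose (76.2%, beside 26.4% of all genes), 2 fell (Lin28a and Sall4) and 3 did not pass. The median log2 fold change was 1.55. Pou5f1, the OCT4 gene, was measured at 201, 153 and 175 CPM in iEtv2 SP, against 24.7, 36.3 and 28.5 CPM in WT SP and 39.6, 54.1 and 43.9 CPM in WT DP (log2 fold change 2.57 ± 0.16 SE, edgeR adjusted p = 6.2e-07). Utf1, an embryonic stem cell chromatin gene, was measured at 67.3, 43.1 and 56.8 CPM in iEtv2 SP and at 2.98, 5.17 and 2 CPM in WT SP. Dppa4 and Klf2 rose by 3.49 and 2.29 on the log2 scale, and Nanog was measured at 25.2, 37 and 41.6 CPM in iEtv2 SP and at 7.85, 18.7 and 10.9 CPM in WT SP. The summed level of the list was 1492 to 1619 CPM in iEtv2 SP, 1160 to 1420 CPM in WT SP and 1335 to 1543 CPM in WT DP, so the sums of iEtv2 SP and WT DP overlapped. The epithelial genes Cdh1 and Epcam rose too, Cdh1 to 273, 226 and 271 CPM in iEtv2 SP against 70.1, 106 and 58.4 CPM in WT SP.

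Neural markers were higher in iEtv2 SP as well. Of 7 neuroectoderm genes tested 5 rose (71.4%, beside 26.4% of all genes) and 2 did not pass. Their summed level was 214 to 249.8 CPM in iEtv2 SP and 119.6 to 155 CPM in WT SP. Sox3 was measured at 14.6, 8.73 and 12.7 CPM in iEtv2 SP and at 1.84, 2.51 and 1.78 CPM in WT SP. Of 10 endoderm genes tested 2 rose (20%), 2 fell (20%) and 6 did not pass, beside 26.4% and 24.4% of all genes. Afp and Ttr, which define visceral endoderm, did not pass the filter on low counts. Of the 2 endoderm decreases, Hnf4a lost its call in 5 of the 6 fits that left out 1 library, and Apoa1 without replicate 3 of iEtv2 SP. Of 5 feeder fibroblast genes tested 3 (Lox, Thy1 and Pdpn) rose (60%) and 2 fell (40%), beside 26.4% and 24.4% of all genes. Of the 2 decreases, Col6a3 was not called without replicate 1 or 2 of either group. The fibroblast markers Dcn and Lum were among the 4 that did not pass the filter. The summed level of the feeder list was 25 to 28.6 CPM in iEtv2 SP and 20.2 to 23.6 CPM in WT SP. The part of less differentiated cells in the other results was not tested.

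Glycolysis and hypoxia genes were higher as a group. Of 21 genes 14 rose (66.7%, beside 26.4% of all genes), 1 (Ldha) fell and 6 did not pass. The median log2 fold change was 0.64. Pdk1, the kinase that keeps pyruvate out of mitochondria, was measured at 325, 288 and 334 CPM in iEtv2 SP and at 30.1, 39.7 and 38.9 CPM in WT SP (log2 fold change 3.12 ± 0.16 SE, edgeR adjusted p = 1.8e-07). Adm, the hypoxia-responsive vessel peptide adrenomedullin, was measured at 7.55, 7.24 and 7.61 CPM in iEtv2 SP and at 0.55, 0.685 and 0.764 CPM in WT SP. Hk1, a hexokinase, and Bnip3, a hypoxia target of mitochondrial turnover, rose by 1.79 and 2.12 on the log2 scale. Among 15 nuclear genes of oxidative phosphorylation 2 (Atp5b and Ndufs1) fell (13.3%, beside 24.4% of all genes) and 13 did not pass. Without replicate 2 of WT SP 5 fell. Of 10 mitochondrially encoded genes tested edgeR called 0, 1 (mt-Nd1) had an unadjusted p below 0.05, and DESeq2 called 0. Leaving out any 1 of the WT SP libraries gave 1 edgeR call in that list, an increase without replicate 1 and a decrease without replicate 2 or 3.

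Of 26 cell cycle genes 10 fell (38.5%), 3 rose (11.5%) and 13 did not pass (median log2 fold change -0.08). Beside these stand 24.4% of all genes that fell and 26.4% that rose. Both directions together made 50%, beside 50.8% of all genes. Ccnd1 and Ccnd2, the D-type cyclins, were lower, Ccnd2 at 53.6, 48.7 and 48.9 CPM in iEtv2 SP and 140, 178 and 162 CPM in WT SP. Cdkn1a, the p21 inhibitor, was higher, at 57.5, 59.7 and 53.8 CPM in iEtv2 SP and 26.6, 24.8 and 25.3 CPM in WT SP. The mitotic genes Mki67 and Top2a overlapped between the groups. Of 19 amino acid and mitochondrial stress genes 5 rose (26.3%), 6 fell (31.6%) and 8 did not pass (57.9% called). Ddit4 was up by 2.22 and Mthfd2 down by 1.27 on the log2 scale. Of 15 dissociation and immediate early genes 6 rose (40%, beside 26.4% of all genes), 1 fell and 8 did not pass. Fos and Egr1 did not pass. Hspa1b was at 68.5 CPM in replicate 1 of WT SP and at 3.44 CPM or less in the other 5 libraries compared. The 1 decrease (Nr4a1) was not called without replicate 2 of iEtv2 SP or replicate 1 or 3 of WT SP.

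Cells that switched on Etv2 by themselves were set beside these values. In a reporter line (T-GFP; Etv2-tdTomato), the SP gate of the same day was divided on tdTomato, and cells with the tdTomato signal (Etv2-positive) and without it (Etv2-negative) gave 3 libraries each, which share no library with the induced comparison and were counted and fitted apart. Etv2 itself was measured at 79.6, 109 and 78.7 CPM in Etv2-positive and at 27.7, 26.5 and 25.6 CPM in Etv2-negative cells (log2 fold change 1.74 ± 0.14 SE), so the Etv2-negative cells also held Etv2 transcripts. There 13.1% of 17690 genes tested rose and 12.4% fell in Etv2-positive over Etv2-negative cells. The baselines are unlike, since WT SP was not divided on Etv2 and the reporter baseline was the Etv2-negative part of the gate. A difference in sign or size between the comparisons can therefore reflect the baseline as well, which was not tested. Of the 15354 genes tested in both comparisons, 3845 rose with induction and 2158 rose with the reporter, and 534 rose in both, 13.9% of the first set and 24.7% of the second. Of the 3845, 744 or 19.3% fell with the reporter. Of 3939 that fell with induction, 458 (11.6%) also fell with the reporter, which is 22.6% of the 2028 that fell there, and 915 (23.2%) rose with it. Beside 13.9% and 11.6% stand 13.1% of all genes that rose and 12.4% that fell with the reporter. Beside 24.7% and 22.6% stand 26.4% that rose and 24.4% that fell with induction, so the overlap was near these shares. The shares of opposite sign, 19.3% and 23.2%, lay above 12.4% and 13.1%.

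Endothelial genes rose in both comparisons. Of the 23 endothelial surface and junction genes tested in both, 22 rose with induction and 18 rose with the reporter, and all 18 were among the 22. Of 19 blood and endothelial transcription factors, 13 rose with induction and 15 with the reporter, 12 of them in both. Cdh5 was measured at 11.3, 12.3 and 23.1 CPM in Etv2-positive and at 1.43, 3.12 and 3.99 CPM in Etv2-negative SP cells of the reporter line (log2 fold change 2.45 ± 0.37 SE), beside a log2 fold change of 4.47 with induction. Tal1 was measured at 97.7, 115 and 194 CPM in Etv2-positive and at 8.25, 16.9 and 20.4 CPM in Etv2-negative cells (log2 fold change 3.16 ± 0.32 SE), beside 1.06 with induction. Whether these changes differ in size between the comparisons was not tested.

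Several blood genes had opposite signs in the induced and the reporter comparison, whose baselines are unlike. Of 16 hematopoietic genes tested in both, 13 rose with the reporter, while 7 rose and 4 fell with induction, and the 4 that fell, Runx1, Gata1, Gfi1b and Cd44, were among the 13. Runx1 was measured at 64.2, 50 and 62.8 CPM in Etv2-positive and at 37.7, 35.9 and 28 CPM in Etv2-negative cells of the reporter line (log2 fold change 0.80 ± 0.15 SE), beside -1.91 with induction. Of 19 pluripotency genes tested in both, 15 rose with induction, and 9 fell with the reporter, 7 of which were genes that rose with induction. Pou5f1 was measured at 28, 29.1 and 20.4 CPM in Etv2-positive and at 63.7, 71.7 and 46 CPM in Etv2-negative cells (log2 fold change -1.23 ± 0.23 SE), beside 2.57 with induction. Glycolysis and hypoxia genes did likewise, with 14 of 21 higher with induction and 12 of 21 lower with the reporter, and 9 genes in both sets.

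Lateral plate and cardiac genes fell in both comparisons in part. Of 14 lateral plate genes, 13 fell with induction and 4 with the reporter, and all 4 were among the 13. Of 16 cardiac progenitor factors, 13 fell with induction and 7 with the reporter, 6 of them in both, while 3 rose with the reporter, 2 of which fell with induction. These were Nkx2-5, a homeobox factor of the heart, with log2 fold changes of -4.05 with induction and 2.42 with the reporter, and Tbx5, a T-box factor of the heart, with -1.79 and 1.66. Of 12 cardiomyocyte contractile genes tested in both, 9 fell with induction, and 2 of those rose with the reporter. Of 11 smooth muscle contractile genes, 6 fell with induction and 6 rose with the reporter, and 4 genes were in both sets. Foxf1 was measured at 167, 125 and 109 CPM in Etv2-positive and at 233, 190 and 214 CPM in Etv2-negative cells of the reporter line (log2 fold change -0.67 ± 0.15 SE), beside -6.49 with induction. Mef2c fell with the reporter, by 2.27 on the log2 scale, and rose with induction, by 2.19.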

How the data were processed

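RNA sequencing libraries of 3 iEtv2 SP, 3 WT SP and 3 WT DP samples were analysed from counts per gene, and the 12 libraries of the reporter line from a table of counts deposited for them together. The authors counted reads with featureCounts on mm10, per the submitters' processing notes; total RNA was prepared with a stranded kit, per the labels' protocols, and the aligner, the annotation and the strand setting are not given in the sources used here. Whether reads of overlapping antisense genes were kept apart is therefore not known. The deposited counts were used as they stand, without the summary entries for unmapped, multimapping, ambiguous and no-gene reads. Whether featureCounts gave the counts in this form was not checked. Of 55487 gene IDs per file, 55227 were named from GENCODE M21.

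Counts were fitted with edgeR 4.0.16 (limma 3.58.1, R 4.3.3) by the quasi-likelihood test, two-sided, with TMM scaling, filterByExpr, a term per group over 9 libraries and Benjamini-Hochberg adjustment over the 16288 genes tested; calls have an adjusted p below 0.05. Log2 fold changes are iEtv2 SP over WT SP, and SE is their standard error. The test was tested on simulated data. The reporter libraries were fitted apart in the same way, and their levels are not comparable with those of the other table. The 6 libraries compared held 24031900 to 28184900 counts in genes, so 3 counts in a library stand for 0.102 to 0.127 CPM, which covers counting error only. Promoter letters were searched in RefSeq sequences of GRCm38.p6 that matched 11386 of the genes tested.

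Named genes are Etv2, Kdr, Pdgfra and T, the 12 largest called changes in each direction where the mean reached 5 CPM, and up to 4 called members per list with the largest change. All other genes were chosen after their values were seen. The members and the 27 lists were chosen with earlier results of these data known. Alternatives were DESeq2 1.42.0, other scalings and filters, a 2-fold minimum, a replicate block and each library left out in turn.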

Additional observations from a re-analysis of the deposited data

How the results depend on the processing

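The direction and call of all 115 named genes were the same with RLE or upper-quartile scaling, with the replicate block, without mitochondrial and ribosomal RNA genes and with DESeq2. With no filter, T was called as well (log2 fold change 0.42). The number of genes called was 8265 with RLE scaling, 8269 with upper-quartile scaling, 8667 with no filter, 7768 with at least 1 CPM in 3 libraries, 8312 with only the 6 libraries compared and 8245 with DESeq2, against 8274. Leaving out 1 library gave 6834 to 8058 calls, of which 3692 to 4320 were higher and 3142 to 3738 lower. A test against a 2-fold minimum called 1741 genes, 1205 higher and 536 lower, so 69.2% of its calls were higher, against 51.9%; 22 of the named genes lost their call under it, and 32 of 54 list counts moved by more than 1.5 times. Kdr, not called in any of these fits, had a log2 fold change from -0.12 to 0.10 when 1 library was left out, and its sign turned without replicate 1 of iEtv2 SP (0.10, edgeR adjusted p = 0.565) and without replicate 3 of WT SP (0.01, edgeR adjusted p = 0.963). Hnf4a, Apoa1, Col6a3, Ndufs1 and Chac1 lost their call in at least 1 fit without a library.

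With the replicate number as a block (replicate block), 8944 genes were called, 4585 higher and 4359 lower, and 5445 against 4504 in the reporter line. Between iEtv2 SP and WT SP the numbers were not taken as pairs, since deviations of same-numbered libraries correlated at 0.24, 0.13 and -0.14. In the reporter line such correlations were not computed. Its reported calls and SE come from a fit without the block, so any pairing of its libraries was not used. In the reporter line the calls were 4548 with RLE scaling, 4738 with no filter and 3232 to 3608 without 1 library.

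There are 3 libraries per group, and no measurement separates the line, doxycycline and Etv2. At this depth a gene below about 0.127 CPM in a library rests on fewer than 3 counts, so ratios against such levels are imprecise.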

Other observations

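Gene families were also counted in the same fit. Many of their members, among them most of the T-box, GATA and ETS genes named here, are already in the lists above, so these counts are not separate results. They stand beside 26.4% of all genes that rose and 24.4% that fell. Of 15 Hox genes tested 11 fell, all by at least 2-fold, and 4 did not pass, with a median log2 fold change of -2.11. Hoxb1, a hindbrain and early mesoderm Hox gene, was measured at 0.153, 0.839 and 0.237 CPM in iEtv2 SP, against 18.9, 19.3 and 21.4 CPM in WT SP and 36.7, 35.1 and 28.7 CPM in WT DP. Of 11 T-box genes 7 fell and 4 did not pass, and Tbx3 was measured at 47.9, 47.9 and 30.9 CPM in iEtv2 SP and at 342, 372 and 418 CPM in WT SP. Of 6 GATA genes 4 fell (Gata1, Gata3, Gata4 and Gata5), while Gata2 and Gata6 did not pass. SOX genes moved the other way, with 12 of 16 higher and 3 lower.

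ETS genes divided by group: of 23 tested 11 rose and 5 fell. Fli1, Elk3 and Erg had the largest increases, by 2.98, 2.64 and 2.44 on the log2 scale, and Etv4, Etv5 and Etv1, which FGF signalling controls, fell by 2.93, 1.03 and 0.68. Of 9 connexins tested the arterial pair Gja4 and Gja5 rose, by 3.87 and 3.81 on the log2 scale, and 6 others fell. Gja5 was measured at only 0.614, 0.648 and 0.609 CPM in iEtv2 SP and at 0.0785, 0.038 and 0 CPM in WT SP. Its ratio thus rests on very low counts. Of 28 semaphorin and plexin genes, which guide axons and vessels, 16 rose, 7 fell and 5 did not pass; Sema3c rose by 3.59 and Plxna4 fell by 3.16 on the log2 scale. Of 20 ephrin and Eph genes 5 rose and 8 fell, Ephb4, a venous receptor, being among the increases.

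Hprt, a purine salvage gene on the X chromosome, was measured at 91.5, 96.4 and 83.3 CPM in iEtv2 SP, against 3.14, 4.64 and 3.57 CPM in WT SP and 4.27, 4.12 and 4.65 CPM in WT DP (log2 fold change 4.57 ± 0.13 SE, edgeR adjusted p = 1.32e-08). Both groups of the A2lox.Cre line were low and the iEtv2 line was high. A2lox lines are known to carry their cassette site at the Hprt locus, so for Hprt and its neighbours the construction of the line and Etv2 cannot be told apart. Its neighbours Phf6 and Mospd1 did not pass the test, with log2 fold changes of 0.06 and 0.01. Plac1 and Gpc3, nearby genes, fell by 4.46 and 2.96 on the log2 scale. Mt1, a metallothionein, was measured at 94.3, 69 and 73.2 CPM in iEtv2 SP and at 4.59, 5.82 and 4.46 CPM in WT SP. Thsd1, which had the lowest p of all genes, was measured at 95.4, 120 and 128 CPM in iEtv2 SP and at 3.45, 3.39 and 3.61 CPM in WT SP.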
